A study of Mus musculus with 12 samples.

Results

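The cells compared were CD31+ lung cells of wild type (WT) mice kept on a high-fat diet (HFD) or on chow, and the members are the 7330 genes that the authors' table for this pair of groups lists, of 9338 genes listed in any of the 4 tables of the series. A gene entered the table when the authors' own unadjusted p-value for the diet contrast was under 0.05. Every listed gene had thus already passed a test of this contrast, and unlisted genes have no values for it. There were 3 libraries from chow-fed mice and 3 from HFD-fed mice, 6 of the 12 samples of the series. All 6 mice were male TET2 fl/fl animals on a C57Bl/6J background without the Cdh5-CreERT2 recombinase, and all received tamoxifen (40 mg/kg on 3 days, when 6 to 8 weeks old), so the controls share the floxed allele and the drug. From 1 week later they ate for 20 weeks a diet that held 60% (HFD) or 13% (chow) of its energy as fat, and per the study's methods they were killed at 30 weeks. CD31 (Pecam1) is an adhesion molecule of endothelial cells that platelets and many leukocytes also carry, so bead selection with it enriches for endothelium without purifying it.

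The lung capillary bed is built of general capillary cells, which can divide and repair it, and of aerocytes, which face the alveolar type 1 cells across the gas exchange barrier. These cells are exposed to circulating lipids, insulin and interferons, and they carry a glycocalyx of sulfated and sialylated glycans on their surface. Interferons are cytokines that switch on antiviral genes through STAT and IRF transcription factors binding short elements in the promoters of these genes.

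Of the listed genes, 3469 were higher and 3861 lower on HFD, which is 14.6% and 16.2% of the 23768 genes over which the authors adjusted. In edgeR's quasi-likelihood test on the listed counts, 614 genes rose and 749 fell at an adjusted p under 0.05, 2.58% and 3.15% of the same 23768 genes, and such genes are named as called below. The libraries of the diets did not overlap for 86.5% of the listed genes, which the selection into the table largely fixed. The calls sat close to the threshold, since the lowest adjusted p was 0.0357. Without chow replicate 2, HFD replicate 1 or HFD replicate 2 no gene was called in either direction, without HFD replicate 3 only 2 were, without chow replicate 1 67 rose and 255 fell, and without chow replicate 3 1111 rose and 483 fell. At an unadjusted p under 0.05 the same fits gave between 2030 and 2650 genes higher and between 2519 and 3164 lower. With all libraries 3105 were higher and 3607 lower at this threshold, which selection into the table largely fixed. Counts at it, here and below, are therefore descriptions and no support for a list. On either side of the threshold lay Krt80 (log2 fold change 1.34) just inside and Myo1d (0.96) just outside. Reads on genes ranged from 36.7 to 56.8 M per library, and listed genes took 28.3 to 33.5% of them. Nothing in the labels says more of the replicates than their numbers, and p-values measure the spread between these libraries.

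The largest increases among called genes whose higher group averaged 100 or more normalized counts were in Ifi44, Igfbp2, Tcf23, Ntrk2 and Aplnr, and the largest decreases in Cyp1a1, Aoc3, L3mbtl1, Abcg4 and Cplx3. A normalized count is the number of reads divided by the library's size factor. Igfbp2, which encodes a binding protein of insulin-like growth factors, had 38.1, 34 and 105 normalized counts on chow against 655, 508 and 439 on HFD. Its log2 fold change was 3.17 (SE 0.46, adjusted p = 0.0357). Tcf23, a helix-loop-helix factor, rose by 3.07 (SE 0.29) on the log2 scale from a mean of 35.8 ± 9.6 to 299 ± 61.7 (SD, n = 3). Ntrk2, the receptor for brain-derived neurotrophic factor, had 98, 129 and 380.5 counts on chow and 1907, 2032 and 1042 on HFD, so the third chow library stood highest in its group and the third HFD library lowest. L3mbtl1, a reader of methylated histones, had 122, 383 and 498 counts on chow and 25.8, 18 and 25.7 on HFD (log2 fold change -3.83, SE 0.55). Aoc3, an amine oxidase of vessels and fat cells, had 60.9, 277 and 142 counts against 7.38, 15.9 and 9.64.

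Endothelial markers were mostly higher on HFD. Of 24 pan-endothelial genes, 21 were listed, all 21 higher, with a median log2 fold change of 1.54 against 0.36 over the listed protein-coding genes. The other 3, Flt1, S1pr1 and Tal1, have no values for this contrast. Over all listed genes the median was -0.32, and it was 0.27 over the 6559 that averaged 10 or more normalized counts, so its sign rests on genes with few reads. Only 7 were called, and the third chow library lay apart from the other chow libraries. Summed over the listed markers, FPKM (fragments scaled to gene length and library total) was 456, 395 and 1059 on chow and 2121, 1678 and 1245 on HFD. Chow replicate 3 thus lay nearer to the lowest HFD library than to the other chow libraries. Pecam1 itself, the selection antigen, had 11454, 9326 and 20858 normalized counts on chow and 38134, 33869 and 22796 on HFD, with a log2 fold change of 1.19 (SE 0.33) that did not pass the test (adjusted p = 0.0743). Cdh5, the cadherin of endothelial junctions, behaved alike with 9834, 8346 and 20798 against 51037, 39015 and 26290.4 counts (1.58, adjusted p = 0.0607). For 4 of the 21 the groups overlapped. In Eng, a TGF-beta co-receptor, chow replicate 3 with 22674 counts exceeded HFD replicate 3 with 16902. Fewer endothelial cells in a library and less endothelial RNA per cell cannot be told apart in bulk samples.

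The called pan-endothelial genes were Sox18, Sox17, Clec14a, Nos3, Emcn, Mmrn2 and Icam2. Sox18 and Sox17, transcription factors of endothelial identity, rose by 2.24 (SE 0.34) and 2.06 (SE 0.38) on the log2 scale. Nos3, the endothelial nitric oxide synthase, had 154, 191 and 260.1 counts on chow and 840.0, 813 and 477 on HFD (1.82, SE 0.29). Emcn, a sialomucin of capillaries and veins, had 482, 521 and 605 counts on chow against 2018, 2154 and 1229 on HFD. Its chow libraries were close together, so chow replicate 3 did not stand near the HFD group for this gene. With chow replicate 3 left out, all 21 listed markers were called and their median log2 fold change was 2.02.

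The markers of separate vessel segments went the same way. Of 15 arterial genes, 14 were listed, all higher, and 5 were called, with a median log2 fold change of 1.43. Of 13 general capillary genes 9 were higher and 1 lower, with 2 called and a median of 1.55, and of 13 aerocyte genes 10 were higher with 1 called and a median of 0.87. Venous and lymphatic lists held 5 higher genes each, with 1 and 0 called by edgeR, and at an unadjusted p under 0.05 there were 5 and 4, with medians of 1.06 and 0.98. Aplnr, the apelin receptor of general capillary cells, had 248, 168 and 426 counts on chow and 3092, 2299 and 1359.6 on HFD (log2 fold change 3.00, SE 0.43). Gja4, the connexin of arterial endothelium, had 274, 332 and 319 counts against 3609, 1769 and 1667 (2.93, SE 0.33), and Cxcl12, a chemokine that retains leukocytes and stem cells, had 1154, 915 and 1382 against 10328, 9211 and 4945 (2.83, SE 0.31). Vegfc, the growth factor of lymphatic vessels, rose by 2.26 (SE 0.20). In none of these genes, named for their size of change, did the third chow library reach the HFD range. Ednrb, the endothelin receptor of aerocytes, had 2371, 2196 and 2883 counts on chow against 6088, 4733 and 11425 on HFD.

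**Figure D1:**
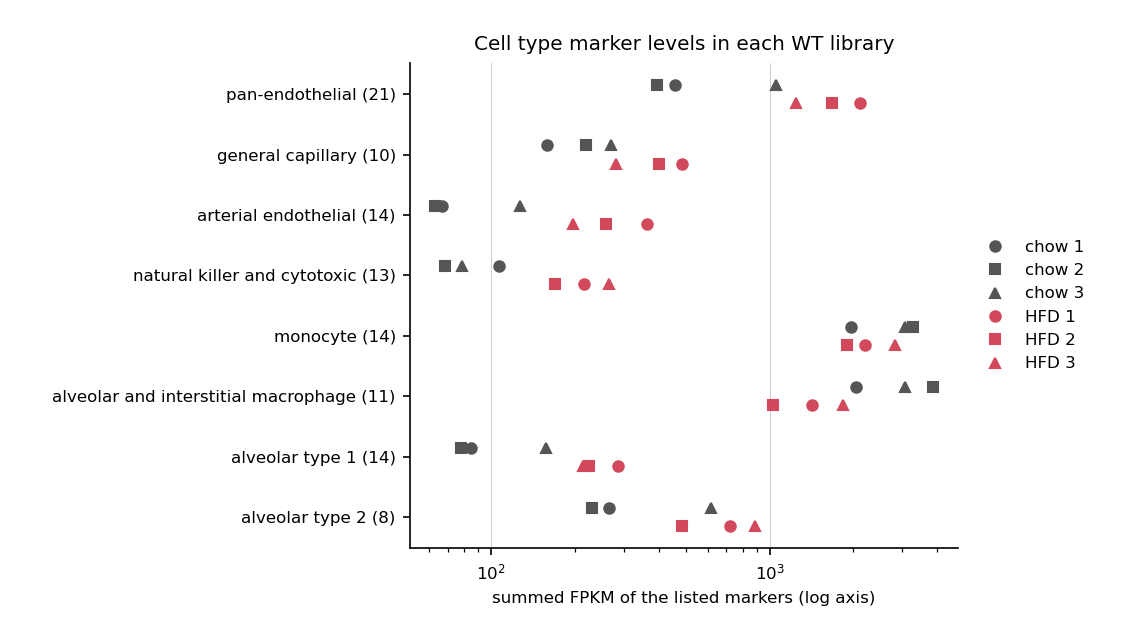
Summed FPKM of the listed markers of 8 cell types in each WT library, on a log axis, with the number of listed markers in brackets, grey for chow and red for HFD. Pan-endothelial sums were 456, 395 and 1059 on chow against 2121, 1678 and 1245 on HFD, and macrophage sums ran the other way. Monocyte sums overlapped, with 1965, 3269 and 3077 on chow against 2207, 1906 and 2833 on HFD. They include Chil3, which was lower and is also on the macrophage list.

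Markers of other cells also differed between the diets. Of 16 genes of alveolar type 1 cells, the thin epithelial cells of the gas exchange surface, 14 were listed, all higher, 6 of them called, with a median of 1.26. Their summed FPKM was 84.8, 77.8 and 157 on chow and 286, 225 and 215 on HFD, again with chow replicate 3 the highest of its group. Ager, the defining receptor of these cells, had 1175, 1199 and 2418 counts on chow against 4548, 3881 and 3694 (1.34, SE 0.29), and Rtkn2 rose by 2.88 (SE 0.61). Of 16 genes of alveolar type 2 cells, which secrete surfactant, 8 were listed, all higher, with only Napsa called. Their sums of 264, 231 and 618 on chow and 721, 487 and 887 on HFD overlapped. The part of these epithelial markers in the other results was not tested.

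Of 18 genes of natural killer (NK) cells and cytotoxic granules, 13 were listed, all higher, and 10 were called, with a median log2 fold change of 1.40. Ncr1, the receptor NKp46 of NK cells, had 117, 66.8 and 57 counts on chow and 501, 271 and 547 on HFD (2.45, SE 0.38). Klrb1c (NK1.1) rose by 2.05 (SE 0.33), Gzma (granzyme A) by 2.03 (SE 0.33) and Prf1 (perforin) by 1.76 (SE 0.30). Unlike the endothelial markers, the NK sums of chow replicate 3 (78.6) lay between those of the other chow libraries (106 and 68.1), well under the HFD sums of 216, 170 and 264. Of 25 T cell genes 3 (12%) were higher and 1 (4%) lower, under the 14.6% and 16.2% of all genes. None was called by edgeR (3 at an unadjusted p under 0.05). Lck, a T cell receptor kinase, had a log2 fold change of 0.63 (adjusted p = 0.133). None of 18 B cell genes and none of 9 erythroid genes was listed.

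Monocyte genes divided from macrophage genes. Of 19 monocyte genes 13 were higher and 1, Chil3, lower, and 8 rose in the test. The called genes included markers of the patrolling monocytes that crawl along vessel walls. Cx3cr1, the fractalkine receptor, had 1437, 1219 and 1647 counts on chow and 5486, 4341 and 6242 on HFD (log2 fold change 1.90, SE 0.18). Adgre4 rose by 1.67 (SE 0.24) and Ace, the angiotensin-converting enzyme that capillaries also express, by 1.63 (SE 0.29). Ccr2, the receptor that draws classical monocytes into tissue, rose by 1.38 (SE 0.23). In contrast, 10 of 11 listed genes of alveolar and interstitial macrophages, of 20 on the list, were lower, with a median of -1.05. Ctsk fell by 1.67 (SE 0.32) and Marco, a scavenger receptor, fell by 1.25 (SE 0.28), and these were the only ones called. Ctsk had 4521, 9729 and 6208 counts on chow and 2025, 1607 and 2804 on HFD. Chil3, the most abundant of them, had 101365, 190096 and 162934 counts against 71674, 51649 and 93854 (-1.07, adjusted p = 0.0733). The exception was Fabp4, which capillary endothelium also expresses, at 1.53 (adjusted p = 0.0555). One HFD library stood apart in C1qa, C1qb and C1qc of interstitial macrophages, which are not listed for this comparison. Their values come from the authors' comparison of genotypes on HFD, without values on chow. They had 166, 249 and 129 FPKM in HFD replicate 3, against 20.8, 19.5 and 8.59 in replicate 1 and 4.64, 5.34 and 2.46 in replicate 2. Retnlg, the only listed gene of 16 neutrophil genes, had 12083, 8900.1 and 6684 counts on chow and 1325, 2996 and 5702 on HFD (-1.47, adjusted p = 0.111).

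Interferon response genes were the pathway with the most called members. Of 78 genes, 63 were listed, 62 higher and 1 lower, and 38 rose, while 2.58% of all genes were called higher. The median log2 fold change of the 63 was 0.95. Short stretches upstream of 3 called members are shown because they hold the interferon response core, and a stretch of Cyp1a1 because it holds the core bound by the aryl hydrocarbon receptor and its partner. Sequences are from RefSeq promoters on GRCm38.p6, read 5′ to 3′ on the gene's strand and ending before the transcription start. Capitals mark GAAANNGAA on either strand, N being any base, or in Cyp1a1 GCGTG, and overlapping matches run together. Ifit1 and Rsad2 were chosen after their values were seen.
Ifit3, chr19:34583402-34583461, plus strand: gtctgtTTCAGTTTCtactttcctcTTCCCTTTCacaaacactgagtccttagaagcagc
Ifit1, chr19:34640780-34640839, plus strand: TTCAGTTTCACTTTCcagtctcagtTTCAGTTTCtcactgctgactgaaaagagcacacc
Rsad2, chr12:26456537-26456596, minus strand: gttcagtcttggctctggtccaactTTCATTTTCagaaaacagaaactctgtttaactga
Cyp1a1, chr9:57697534-57697593, plus strand: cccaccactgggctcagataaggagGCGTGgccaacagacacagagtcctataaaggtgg

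Over the 300 bases of each promoter, 37 of the 59 interferon list genes with a sequence held GAAANNGAA (62.7%), as did 17 of 26 called members (65.4%) and 9.76% of all 27025 genes with a promoter sequence. GCGTG was in 35.2% of all genes and in 7 of 11 genes of the aryl hydrocarbon receptor list. A match describes letters only.

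Ifit3, of the same gene family as Ifit1, had 133, 90.6 and 204 counts on chow and 1306, 834 and 592 on HFD. It rose by 2.67 on the log2 scale (SE 0.39, adjusted p = 0.0357). Its neighbour Ifit3b rose by 2.83 (SE 0.40), but both genes are near-identical copies whose reads the counting could split. Ifi44 had 37.1, 34 and 82.8 counts against 729, 426 and 252 (3.19, SE 0.51). Ifit1 rose by 2.15 (SE 0.34) and Rsad2 (viperin) by 1.60 (SE 0.33). In each, every HFD library exceeded every chow library. Of the regulators, the transcription factor Irf7 rose by 0.72 (SE 0.14), and Ifng, the type II interferon made by NK and T cells, had 77.1, 53.2 and 69.9 counts on chow against 96, 135 and 169 (0.99, adjusted p = 0.0779). Irf7 and Ifng were chosen after their values were seen, as was the exception Trim25, with 29799, 30690.2 and 24661 counts against 18938, 20574 and 19393 (-0.53, adjusted p = 0.0555).

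The summed FPKM of the 63 genes was 836, 788 and 1059.5 on chow and 1775, 1687 and 1903 on HFD, so chow replicate 3 was the highest of the chow libraries but did not approach the HFD range as it did for the endothelial markers. With single libraries left out, between 55 and 59 of the 63 were at an unadjusted p under 0.05, with medians from 0.88 to 1.10, while the number called ranged from 0 to 43. Selection into the table largely fixed the unadjusted count. Over all 7330 listed genes the same fits gave 2030 to 2650 higher and 2519 to 3164 lower. NK, monocyte and endothelial markers were higher in the same libraries, and their part in this result was not tested.

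Genes of nucleic acid sensing and of antigen processing, some of which are also on the interferon list, were higher too. Of 23 sensing genes 11 were higher and 1 lower, with 6 called, among them Zbp1 (1.24, SE 0.18), Oas1a (1.34, SE 0.26) and Tlr3 (1.03, SE 0.22). Of 32 antigen presentation genes 18 were higher and 1 lower, and 9 rose. H2-T23, a non-classical class I molecule that NK cells inspect, had 10144, 8867 and 9282 counts on chow against 16120.2, 17837 and 16879.9 on HFD (0.85, SE 0.11). Of 48 proteasome genes 8 were higher and 2 lower and 4 rose, including the inducible catalytic subunits Psmb8 (0.49), Psmb9 (0.95) and Psmb10 (0.64). Psmb10 was among the most even of the named genes, with 2383, 2400.2 and 2504 counts against 3719, 3769 and 3833.

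**Figure D2:**
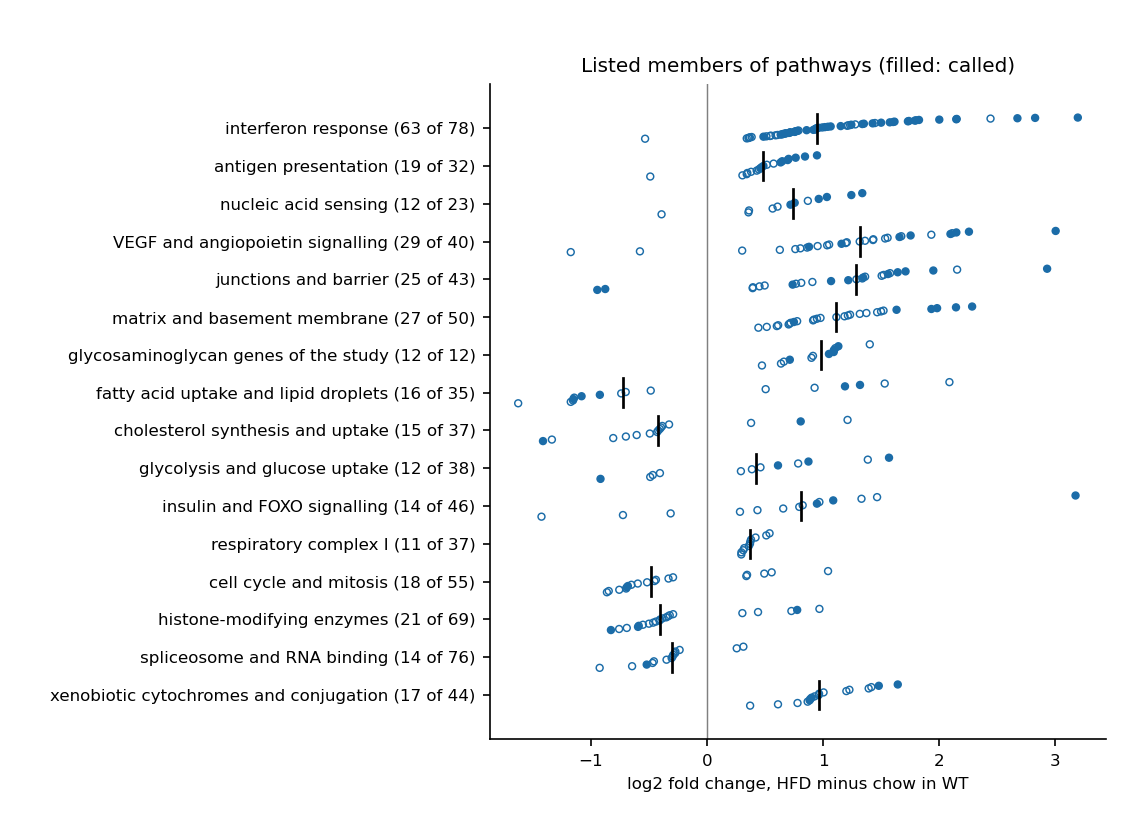
Log2 fold change of the listed members of 16 pathway lists, HFD minus chow in WT, with filled points for called genes, a vertical bar at the list median and the number listed of all members in brackets. The interferon list has a median of 0.95 with 62 of 63 listed members above 0, while cholesterol, cell cycle and histone-modifying lists have medians under 0.

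Genes of vessel growth and structure followed the endothelial markers, in part because the lists share members. The VEGF and angiopoietin list shares 6 genes with the pan-endothelial and 4 with the arterial list, and the junction list shares 2 with each. Of 40 genes of VEGF and angiopoietin signalling 27 were higher and 2 lower, with 8 called and a median of 1.32. Sema3c, a guidance cue of the vessel wall, had 2722, 3282 and 6122 counts on chow and 23584, 19258 and 10920.0 on HFD (2.15, SE 0.39). Of 43 junction and barrier genes 23 were higher, 9 of which rose, and 2 were lower, both of which fell, namely the tight junction genes Cldn15 (by 0.94) and Marveld2 (by 0.87). Of 50 matrix and basement membrane genes 27 were listed, all higher, with 6 called, led by Col4a3 (2.28, SE 0.40), a chain of the alveolar basement membrane that also stands on the type 1 list. Among vasoactive genes 18 of 44 were higher and 3 lower, with 5 and 1 called. The adrenomedullin co-receptor Ramp3 fell by 0.73 (SE 0.13). Of 32 genes of coagulation and fibrinolysis 8 were higher and 5 lower. Of these 1 was called each way (3.125%), near the 2.58% and 3.15% of all genes. Thbd, the thrombomodulin that makes endothelium anticoagulant, rose by 1.66 (SE 0.37). Endothelial and type 1 markers moved with most of these groups, and their part in them was not tested.

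Scaling each library to the listed pan-endothelial markers, an alternative chosen after the data were seen, moved all values down by a median of 1.63 on the log2 scale. Of the 7330 listed genes, 463 were then higher and 6867 lower relative to these markers. At an unadjusted p under 0.05, 31 were higher and 5240 lower. The interferon median became -0.67 with 15 of 63 members higher, and the medians were -0.23 for NK genes, -0.34 for monocyte genes, -0.20 for type 1 cells, -0.20 for VEGF signalling, -0.30 for junctions, -0.42 for matrix and -2.70 for macrophages. The directions given above are thus relative to the whole library. Relative to the endothelial markers the median member of each of these groups was lower. The markers used were themselves selected by this contrast, and all were higher on HFD. A group whose median lay under the shift of 1.63 thus largely had to be lower, and no conclusion is drawn from it.

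The study's 12 glycosaminoglycan genes, which build, sulfate, sialylate or degrade glycans of the cell surface, were all listed and all higher, with 5 called and a median of 0.98. The study chose this list on these samples, so their direction is not independent evidence. St3gal4, a sialyltransferase that caps selectin ligands, had 1259, 1397 and 1568 counts on chow and 2598, 2547 and 3864 on HFD (log2 fold change 1.09, SE 0.19, adjusted p = 0.0368). St3gal2 rose by 1.05 (SE 0.19) and St3gal1 by 0.71 (SE 0.15). Sgsh, the lysosomal enzyme that removes sulfate from heparan sulfate, had 647, 464 and 637 counts against 1281, 1286 and 1166 (1.09, SE 0.16), and B3gnt3 rose by 1.13 (SE 0.23). The genes that did not pass were Hyal2 (1.40), Hyal1 (1.11), St3gal6 (0.91), Hgsnat (0.90), Chst2 (0.66), Chst1 (0.64) and Ndst1 (0.47), with adjusted p-values from 0.0595 for Hyal2 to 0.257 for Chst1. Chst1 was the one whose groups overlapped, with 493, 435 and 958 counts on chow against 1153, 852 and 928 on HFD. Of 45 genes of heparan and chondroitin sulfate synthesis 20 were higher and 5 lower with 4 called, led by Chst7 (1.79, SE 0.36). Relative to the endothelial markers, none of the 12 study genes was higher. The scaling largely fixed this, since their largest change, 1.40, lay under its median shift of 1.63.

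Among core proteins, podocalyxin (Podxl), a sialylated protein of the luminal surface, rose by 1.92 (SE 0.35), agrin (Agrn) by 1.26 (SE 0.26), and the hyaluronan synthase Has1 had 144, 178 and 169.8 counts on chow against 39.9, 23.3 and 50.3 on HFD (-2.11, SE 0.31). Of 46 metalloproteinases 11 were higher and 8 lower, and 4 rose and 4 fell. Mmp28 had 167, 138 and 269 counts against 1343, 808 and 673 (2.30, SE 0.35), whereas Mmp19 had 4693, 8742 and 5595 against 1027, 1437 and 1939.9 (-2.11, SE 0.31). Macrophage markers were lower in the same libraries as Mmp19, and their part in this decrease was not tested.

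Lipid genes went in both directions. Of 35 genes of fatty acid uptake and lipid droplets 6 (17.1%) were higher and 10 (28.6%) lower. In the test 2 rose (5.71%) and 3 fell (8.57%), against 2.58% and 3.15% of all genes. Cd36, the fatty acid translocase of capillaries and macrophages, had 13874, 18034 and 25997 counts on chow and 55473, 47217 and 41768 on HFD (1.32, SE 0.24). Lipe, the hormone-sensitive lipase, rose by 1.19 (SE 0.16). The triglyceride synthase Dgat1 had 11576, 11991 and 12120.4 counts against 3928, 5644 and 7327 (-1.08, SE 0.22), the droplet protein Cidec fell by 1.15 (SE 0.25) and the acyl-CoA ligase Acsl3 fell by 0.92 (SE 0.18). The list shares 3 genes with the macrophage list, whose markers were mostly lower, and 3 with the general capillary list, whose markers were mostly higher. Of 47 genes of fatty acid oxidation and PPAR targets 8 were higher and 7 lower, and 2 were called, among them the acyl-CoA dehydrogenase Acadl (0.56, SE 0.11).

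Of 37 genes of cholesterol synthesis and uptake 3 (8.11%) were higher and 12 (32.4%) lower. In the test 1 rose and 1 fell, 2.70% each way, near the 2.58% and 3.15% of all genes. Scarb1, the HDL receptor, rose by 0.81 (SE 0.15). Of 26 fatty acid synthesis genes 8 (30.8%) were higher and 2 (7.69%) lower. Only Acacb was called (1.29, SE 0.25), 3.85% of the list against 2.58% of all genes. In glycolysis 8 of 38 genes (21.1%) were higher and 4 (10.5%) lower, against 14.6% and 16.2% of all genes. In the test 3 rose (7.89%) and 1 fell (2.63%). Eno3, an enolase, had 1345, 1193 and 1296 counts against 2979, 4198 and 4202 (1.57, SE 0.16), and the aldolase Aldoc had 725, 879.7 and 752 against 383, 388 and 479 (-0.92, SE 0.15). Of 46 insulin and FOXO genes 11 (23.9%) were higher and 3 (6.52%) lower. In the test 3 rose (6.52% against 2.58% of all genes), namely Igfbp2, Igfbp4 (1.09, SE 0.24) and the insulin receptor substrate Irs1. Irs1 had 169, 154 and 146 counts on chow against 319.6, 269.7 and 317 on HFD (0.95, SE 0.17).

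Cyp1a1, a cytochrome induced by the aryl hydrocarbon receptor, had the largest decrease of the genes named by size. It had 162, 135 and 258 normalized counts on chow and 5.91, 12.7 and 12.8 on HFD, a difference of -4.16 on the log2 scale (SE 0.42, adjusted p = 0.0357) that lay between -4.35 and -3.84 when single libraries were left out. Only 1 other gene of the 14 on this list was listed, the receptor Ahr itself, which rose by 0.74 (SE 0.16). Of 44 other genes of xenobiotic cytochromes and conjugation 17 were listed, all higher, and 4 rose, including Ces2e (1.64, SE 0.29) and Cyp2j6 (1.48, SE 0.23). Of 22 clock genes 1 (4.55%) was higher and 3 (13.6%) lower, under the 14.6% and 16.2% of all genes listed each way. Per2, a repressor of the clock, had 1751, 2273 and 2505 counts against 836, 831 and 1149.8 and fell by 1.21 (SE 0.19), while Cry1 (-0.39) and Csnk1d (-0.37) did not pass the test. The time of day at which the mice were killed is not given in the sources used here.

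**Figure D3:**
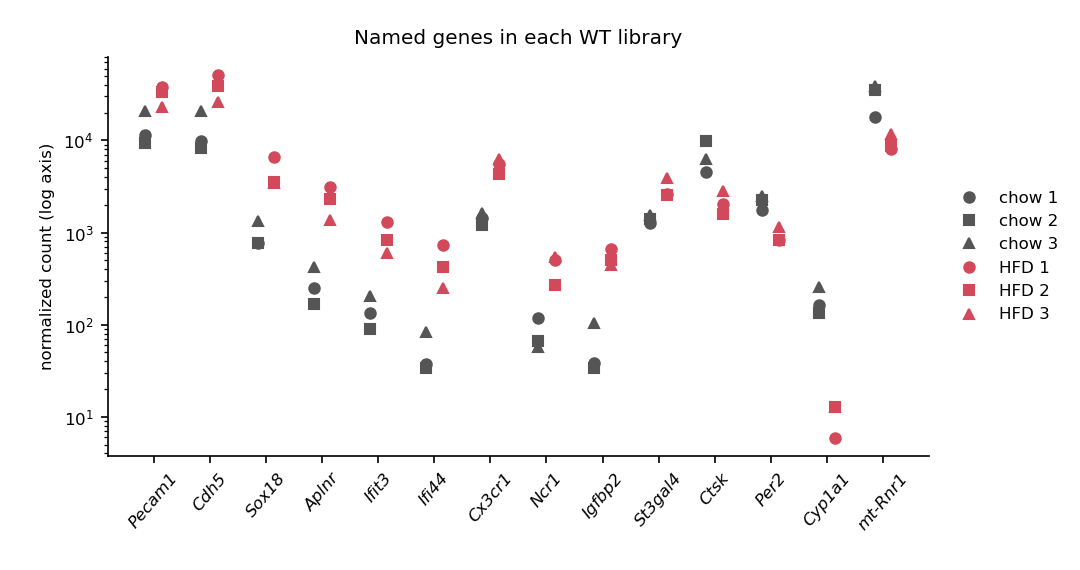
Normalized counts of 14 named genes in each WT library on a log axis, grey for chow and red for HFD, with a symbol for each replicate number. Chow replicate 3 is near the HFD libraries for Pecam1 and Cdh5, while Cyp1a1 has 135 to 258 counts on chow and 5.91 to 12.8 on HFD.

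The shares of housekeeping groups are read against the 14.6% of all genes listed as higher and the 16.2% listed as lower. Of 37 genes of respiratory complex I, 11 (29.7%) were listed, all higher, between 0.30 and 0.54, and edgeR called 0, against 11 at an unadjusted p under 0.05 and 7 called by DESeq2. Of 78 mitochondrial ribosomal proteins 19 (24.4%) were higher and 3 lower. Of 77 cytosolic ribosomal proteins 5 (6.49%) were listed, all higher. Of 69 histone-modifying enzymes 16 (23.2%) were lower and 5 higher. Their share called lower, 2 of 69 (2.90%), was near the 3.15% of all genes, and these were the demethylase Kdm2b, which fell by 0.83 (SE 0.12), and Kmt2e, which fell by 0.59 (SE 0.13), while the acetyltransferase Kat2b rose by 0.78 (SE 0.16). Of 76 splicing genes 12 (15.8%) were lower and 2 higher, a share near that of all genes, with Hnrnph1 called (-0.52, SE 0.12). Of 55 cell cycle genes 13 (23.6%) were lower and 5 higher. Those called lower, Ccnd2 (by 0.68) and Tk1 (by 0.69), made 3.64% of the list, near the 3.15% of all genes. Tet2, intact in all these mice, had 3326, 3629.8 and 3642 counts on chow and 4296, 4463 and 4750.2 on HFD, a log2 fold change of 0.35 (SE 0.10) that did not pass the test (adjusted p = 0.0804).

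Direction also differed by gene type. Of 5491 listed protein-coding genes 3159 were higher and 2332 lower, with a median of 0.36, whereas of 1839 other genes 310 were higher and 1529 lower (83.1%), with a median of -1.40. Among those averaging 10 or more counts, 1048 of 1292 other genes were lower (81.1%) and 2148 of 5267 protein-coding genes (40.8%). Lower genes made up 364 of 403 TEC loci (transcripts to be experimentally checked), 297 of 361 antisense genes, 275 of 342 lincRNAs and 248 of 295 processed pseudogenes. In reads, lincRNAs took 1.52, 1.31 and 1.27% of the listed reads on chow and 0.75, 0.88 and 0.76% on HFD, so the chow libraries lay above the HFD libraries and were close together. The mitochondrial ribosomal RNAs, which are not typical poly(A) transcripts, fell as well. mt-Rnr1 had 18110.0, 35499.8 and 38538 counts on chow and 8035, 8771 and 11579 on HFD (-1.70, SE 0.30), and mt-Rnr2 fell by 1.05 (SE 0.22). By length, genes under 500 bases with a mean of at least 50 counts in the higher group were higher in 43.3% of 104 cases, and those of 8000 bases or more in 61.0% of 834. Whether counting used the strand is not given in the sources used here, so reads of antisense genes and of their partners cannot be told apart.

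**Figure D4:**
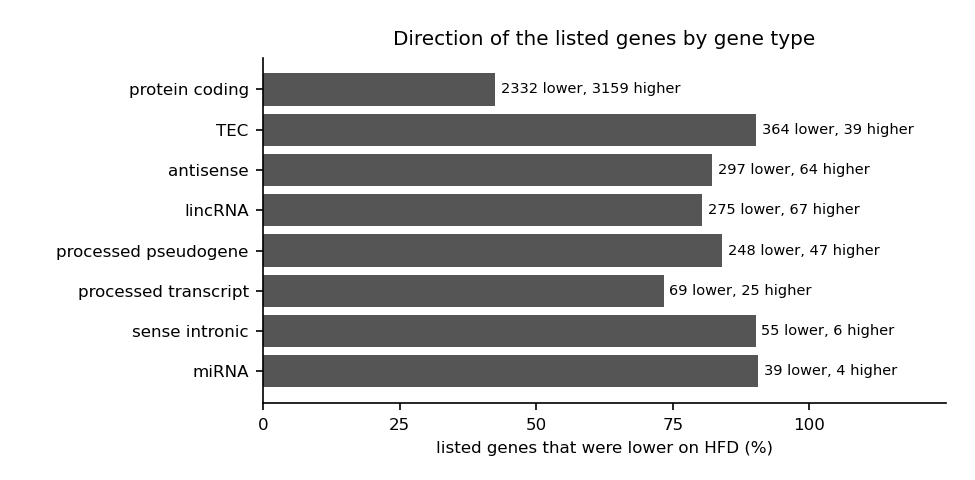
Share of the listed genes of each gene type that were lower on HFD, in percent, for the 8 most frequent types, with counts beside the bars. Of protein-coding genes 42.5% were lower, and in the other types shown 73.4% or more were.

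The same diets were compared in TET2 KO mice, which carry the Cre recombinase, with 6 other libraries that share none with the WT comparison. That table lists 1628 genes, 638 higher (3.27% of 19511) and 990 lower (5.07%). Of these, 611 were listed in WT too, which is 8.34% of the WT genes and 37.5% of the KO genes, and 430 of them had the same direction. The share was 109 of 200 (54.5%) for genes higher in WT and 321 of 411 (78.1%) for genes lower in WT. Among WT genes called higher 45 were listed in KO, 42 of them higher there, and among those called lower 63 were listed, 44 of them lower. These counts rest on genes selected in both tables and are descriptions.

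List members were followed in KO only where they were also listed in WT. Of these interferon genes, 18 were listed in KO and all 18 were higher on HFD there. Ifit3 had 365, 159 and 171 normalized counts in KO on chow and 466, 709 and 635 on HFD. Of the macrophage genes listed in WT, 10 were listed in KO and all 10 were lower. Cyp1a1 had 167, 101 and 75.9 counts on chow and 17.2, 13.3 and 5.28 on HFD in KO, a log2 ratio of means of -3.16. Per2 was lower too (-0.62). Of the pan-endothelial genes listed in WT only Emcn was listed in KO. It had 582, 564 and 424 counts on chow against 1572, 748 and 772 on HFD there. None of the 12 glycosaminoglycan genes was listed in KO, and the difference in diet effect between genotypes was not tested. Of the monocyte genes listed in WT, 4 were listed in KO and 2 had the same direction as in WT, Adgre4 (higher) and Chil3 (lower). F13a1 and Ccr2 were lower in KO, and Ccr2 had 2602, 3509 and 3321 counts on chow and 990.5, 2376 and 2493 on HFD there.

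**Figure D5:**
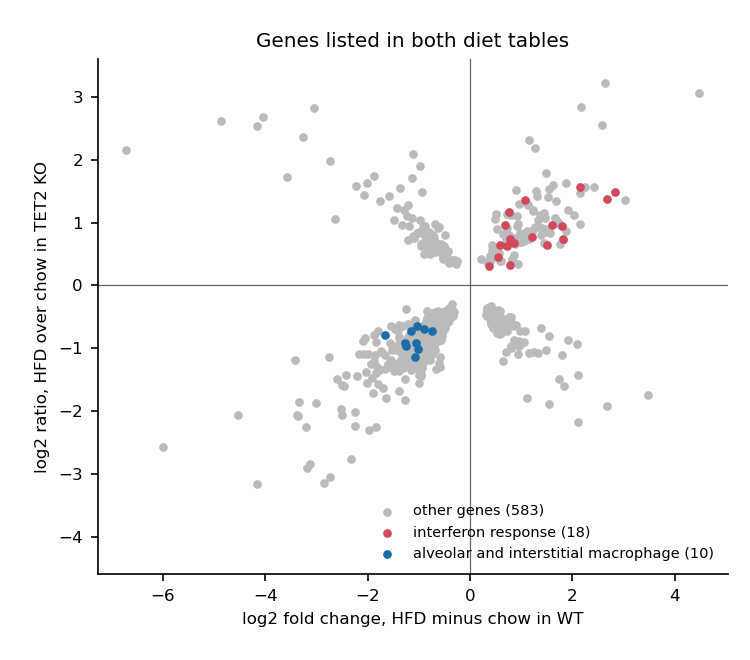
Log2 fold change on HFD in WT against the log2 ratio of mean normalized counts in TET2 KO for the 611 genes listed in both diet tables. The 18 interferon genes lie above 0 on both axes and the 10 macrophage genes under 0 on both.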

How the data were processed

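RNA of CD31+ lung cells was measured by poly(A) paired-end sequencing. According to the study's methods and processing notes, the authors aligned reads to mm10 with HISAT2, counted them with featureCounts and tested them with DESeq2 (versions and strand setting not given in the sources used here). The authors deposited whole-number counts, a normalized signal that is the count divided by a DESeq2 size factor, and FPKM values, only for genes with an unadjusted p under 0.05. Their log2 fold changes and p-values were deposited too and were not used, except that the ratio of p to adjusted p gave the 23768 genes adjusted over. For 161 listed genes DESeq2 gave no adjusted value, and none is given for them here. Of the identifiers, 7322 matched GENCODE M21.

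Counts of WT HFD and WT chow libraries, grouped by their labels, were compared with edgeR 4.0.16 (quasi-likelihood, R 4.3.3), with the authors' size factors and no covariate. Benjamini-Hochberg adjustment ran over the 23768 genes, and genes under 0.05 were called. On simulated counts of 7330 genes for this comparison, 51 of 100 genes changed by a log2 fold of 1 and 91 of 100 changed by 2 were recovered, with 8 false calls. The simulated tests were adjusted over 7330 genes, not 23768, so their recovery and false calls do not carry over to the calls above. Mean values are normalized counts with SD. With 3 against 3 an exact permutation test cannot go under 0.1, so none was used. Counting error is small for genes with many reads at 36.7 to 56.8 M reads on genes, and the spread between mice limits their precision. It is not small for genes with few reads, some of them among the largest decreases. On HFD Abcg4 had 9, 8 and 9 reads and Aoc3 had 10, 15 and 9. KO ratios used a pseudocount of 1.

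The 71 lists (25 of cell types, 46 of pathways) share members and, like the choice of genes, were made with earlier results of these data known. Named genes are, for each list, up to 3 called members in each direction with the largest change and a mean of at least 50 in the higher group, or else the 2 most abundant listed members, the 5 largest changes each way (mean at least 100, no overlap), Tet2, the study's glycosaminoglycan genes, and listed pan-endothelial, clock and aryl hydrocarbon receptor genes. Some members of these lists are not reported here. Alternatives were library totals, TMM, size factors re-estimated on the listed genes, DESeq2 1.42.0, limma-trend (limma 3.58.1, pseudocount 1), a mean of at least 10 counts, other thresholds, adjustment over listed genes alone, a removed length trend, the replicate block, each library left out, and, added after the data were seen, scaling to endothelial markers.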

Additional observations from a re-analysis of the deposited data

Results flagged for a closer look

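Slc16a11 and Ddx3y moved in opposite directions on HFD in WT and in TET2 KO mice, with no overlap between the diets in either genotype, and the difference between genotypes was not tested. Opposite directions were not rare, since only 430 of the 611 genes listed in both genotypes had the same direction. Slc16a11, a monocarboxylate transporter, had 658, 757 and 944 normalized counts on chow and 292, 324 and 319 on HFD in WT (log2 fold change -1.34, SE 0.17), and 260.4, 381 and 243 on chow against 903, 389 and 429 on HFD in TET2 KO (log2 ratio of means 0.96). Ddx3y, a Y-linked RNA helicase, was listed at a log2 fold change of -0.27 in WT (adjusted p = 0.189) and at a log2 ratio of 0.34 in TET2 KO.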

How the results depend on the processing

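Of the 170 named genes, none turned direction under the other normalizations, filters, models and omitted libraries, apart from scaling to the pan-endothelial markers. The choice of genes largely fixed this, since the libraries of the diets do not overlap for 159 of them. Under that scaling, which lowers all values together, 82 of the 170 named genes turned direction. It gave 8 genes called higher and 3932 lower. Genes called higher numbered 948 with TMM, 1012 with re-estimated size factors, 2177 with DESeq2, 2884 when adjusted over the listed genes alone, 1234 without the length trend, 1878 at an adjusted p under 0.10, 3105 at an unadjusted p under 0.05 and 389 with a log2 fold change over 1. Genes called lower numbered 2369 with DESeq2, 3313 over the listed genes alone, 1227 without the length trend, 2225 at 0.10 and 3607 unadjusted. Leaving out single libraries gave 0 to 1111 higher and 0 to 483 lower. The causes were not tested, other than that looser thresholds and fewer genes adjusted over allow more calls. Same-numbered libraries correlated at 0.092, -0.14 and -0.079 in their deviations from the group means, so the numbers were not taken to pair the mice. With the replicate block edgeR called 0 genes higher and 0 lower, with 2524 and 3082 at an unadjusted p under 0.05. With 3 mice a group and genes selected by the same contrast, adjusted calls depend on single libraries.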
